A study of Mus musculus with 24 samples.

Results

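The nuclear pore complex is built from nucleoporins, and the 30 nucleoporin genes described here were taken as a named list and located in a mouse gene table of 21887 protein-coding genes. For each gene, the peaks of m6A (N6-methyladenosine, the methylated form of adenosine found inside RNA) that overlap the gene body by at least 1 bp were collected from 12 peak lists. A gene with at least 1 such peak in a library is called marked in it. The lists come from C57BL/6N mouse oocytes and preimplantation embryos, in which RNA bound by an m6A antibody (Millipore, ABE572) was sequenced beside input RNA after removal of ribosomal RNA. There were 2 replicate pools for each of 6 stages. Embryos and oocytes came from hormone-stimulated 8-week-old mice, with no further treatment or genotype apart from the inhibitor named below for 1 oocyte stage. The embryonic phase holds the 2-cell (39 to 43 h after human chorionic gonadotropin, hCG), 8-cell (68 to 70 h) and blastocyst (92 to 94 h) stages, 6 libraries in all. The maternal phase holds oocytes at the germinal vesicle stage (GV; of the surrounded-nucleolus type, kept in the phosphodiesterase inhibitor IBMX, taken 48 h after pregnant mare serum gonadotropin), metaphase II oocytes (MII; 14 h after hCG) and zygotes (27 to 28 h), also 6 libraries. A pool was 100 embryos or oocytes except for both GV pools (49), MII replicate 2 (110) and 8-cell replicate 2 (51).

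The pore spans both membranes of the nuclear envelope and carries all regulated traffic between nucleus and cytoplasm. A scaffold of Y complexes and an inner ring holds a central channel lined with phenylalanine-glycine (FG) repeats, which transport receptors pass, while filaments on the cytoplasmic face and a basket on the nuclear side handle cargo release and mRNA export. Pores come apart when the oocyte nucleus breaks down at meiotic maturation and are rebuilt in the zygote and after each embryonic division, and m6A on a transcript is known as a signal read by proteins that act on RNA decay, splicing and translation.

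The lists held 6914 (zygote replicate 1) to 11959 (GV replicate 2) peaks. Depth is unknown, since the files give no read counts, and inputs were not analysed here: a gene that is not transcribed, one that is transcribed without m6A and one below detection cannot be told apart. Nor can fewer cells with a transcript in a pool and less of it per cell. Of 6 oocyte markers, 0 to 2 were marked in each embryonic library and 4 in each maternal library. Of 5 trophectoderm markers, 3 were marked in each 8-cell and blastocyst library, 1 (Tead4) in each 2-cell library and none in a maternal one. Of 5 markers of 2-cell embryos, 4 were marked in each 2-cell library and 1 to 4 in later ones. Among maternal libraries, 1 of them (Zscan4d) was marked in both GV libraries and MII replicate 1. Of 5 inner cell mass and primitive endoderm markers, 3 to 5 were marked in each 8-cell and blastocyst library and none in 2-cell libraries. Of these, Sox2 was also marked in 4 maternal libraries. Of 9 markers of cumulus and granulosa cells, none was marked in an embryonic library and at most 1 in a maternal library (Cyp19a1 in both GV libraries, Has2 in MII replicate 2), while Fshr, Amh, Inha and Foxl2 had no peak. The part of other cells in the results below was not tested.

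Of the 30 nucleoporin genes, 22 carried a peak in at least 1 library, among them every gene of the channel, the basket and the cytoplasmic face but only part of the scaffold. This was 73.3% of the nucleoporin genes, against 45.2% of all protein-coding genes. In the 4 lists of related genes described below the share was 70% to 87.5%. All 4 central channel genes, all 5 cytoplasmic face genes and all 3 basket genes were marked somewhere, as were 3 of 4 membrane and anchor genes, 5 of 9 Y complex genes and 2 of 5 inner ring genes. The 3 basket genes alone held 94 of the 285 nucleoporin peaks of all lists (33.0%), the 5 cytoplasmic face genes 67 (23.5%), the 9 Y complex genes 46 (16.1%), the 4 channel genes 41 (14.4%), the 4 membrane and anchor genes 27 (9.47%) and the 5 inner ring genes 10 (3.51%). Single genes weighed on these shares: Ranbp2 held 45 of the cytoplasmic face peaks and Ahctf1 36 of the Y complex peaks. Of the channel peaks, 25 in Nup62 and 7 in Nup98 also touched another protein-coding gene. Gene length moved with marking: the median gene body was 47626 bp for the 22 nucleoporin genes with a peak and 20936 bp for the 8 without, and 28665 bp for all protein-coding genes with a peak. With or without a peak, the median was 44156 bp for the 30 nucleoporin genes and 17169 bp for all protein-coding genes. The part of gene length in these counts was not tested.

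The genes fell along the whole range of persistence. Nup62, Nup50 and Ndc1 were marked in all 12 libraries, which is 10% of the nucleoporin genes, where 3.78% of protein-coding genes were. Without peaks that also touch another protein-coding gene, Nup62 was marked in none. Ahctf1, Ranbp2, Nup153 and Tpr were marked in 8 to 11 libraries, and Nup155, Nup54, Nup98, Nup88, Nup214 and Nup210 in 5 to 7. Nup85, Nup205, Gle1, Rae1 and Pom121 were marked in 2 to 4, and Nup107, Nup133, Nup160 and Nup58 in 1 each. No peak touched Nup37, Nup43, Seh1l, Sec13, Nup35, Nup93, Nup188 or Aaas.

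**Figure D1:**
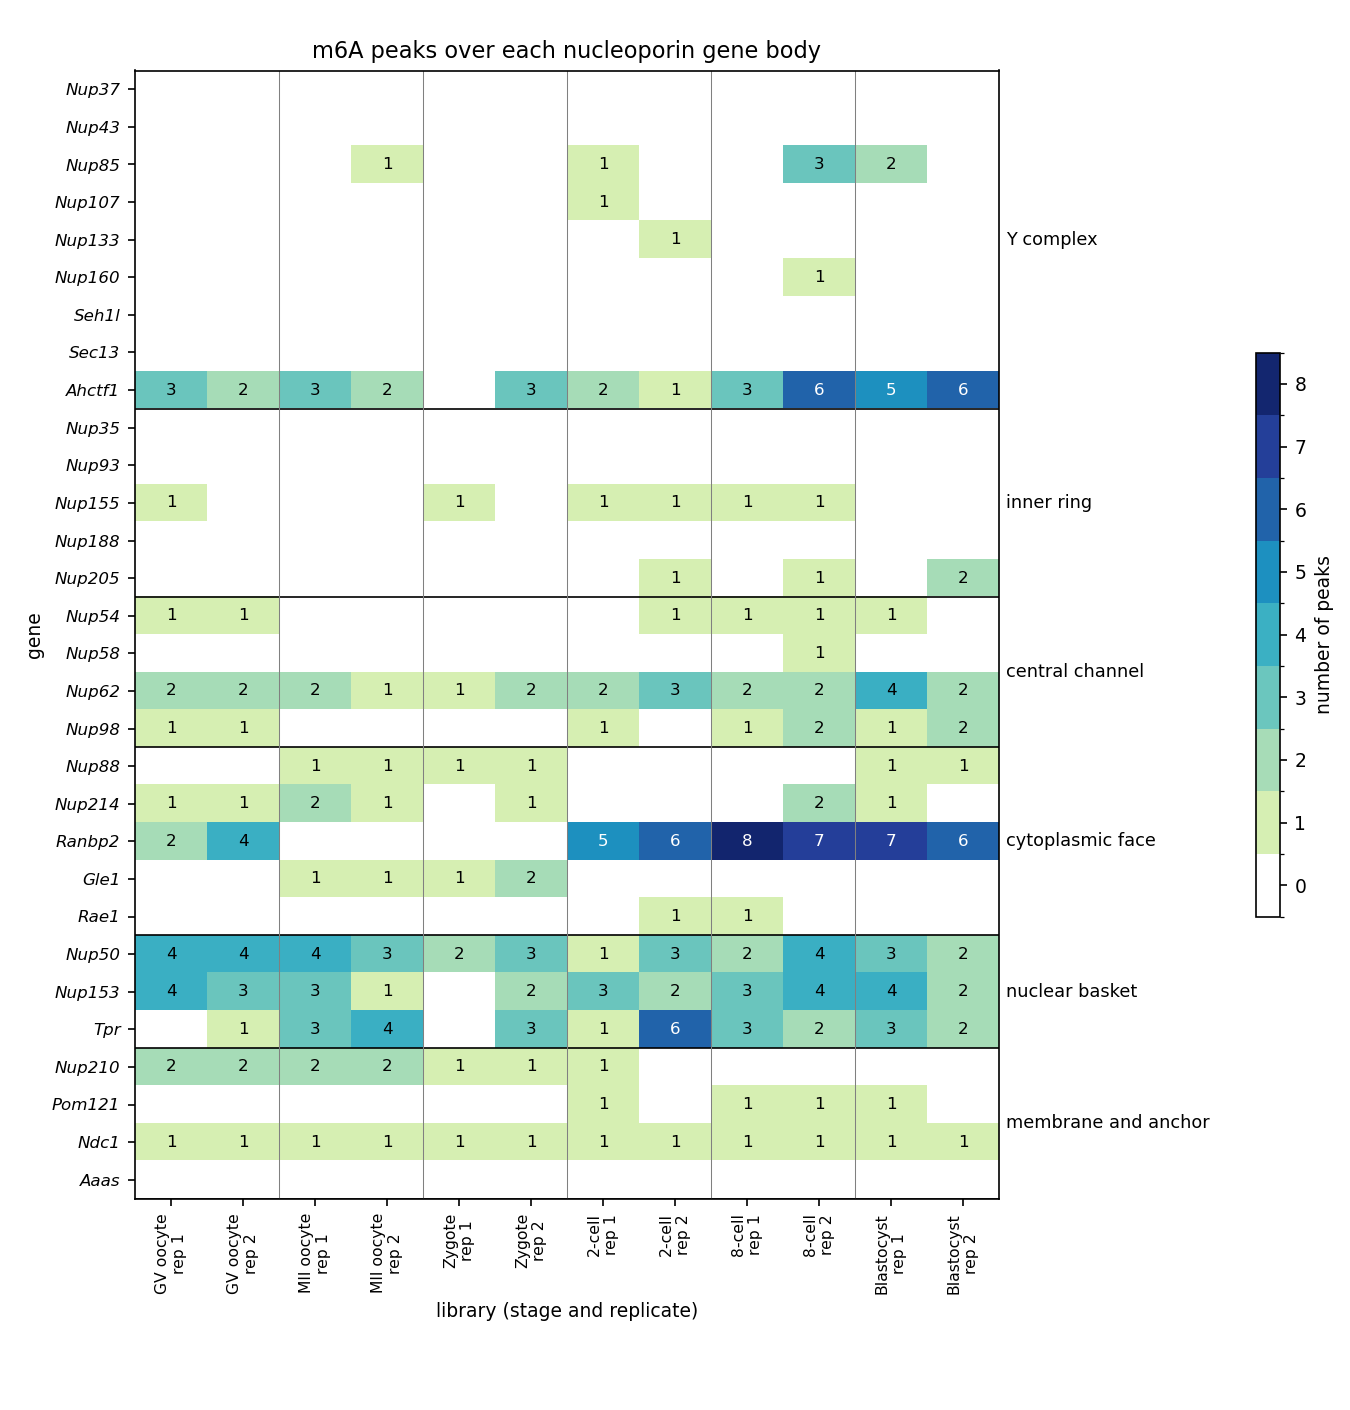
Number of m6A peaks over each of the 30 nucleoporin gene bodies (rows, grouped by place in the pore) in each of the 12 libraries (columns, in developmental order); white cells hold no peak. Ranbp2 holds 5 to 8 peaks in every embryonic library and none in MII oocytes and zygotes, while Ndc1 holds 1 in every library.

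More nucleoporin genes were marked per embryonic than per maternal library, by a mean of 2.67 genes, with overlapping ranges. The direction depended on the score cutoff, as given below. Embryonic libraries marked 13 and 12 (2-cell), 12 and 16 (8-cell) and 13 and 10 (blastocyst) of the 30 genes, against 11 and 11 (GV), 10 and 11 (MII) and 7 and 10 (zygote) in maternal libraries. The mean was 12.7 ± 1.97 in the embryonic phase and 10 ± 1.55 in the maternal phase (SD, n = 6 libraries each), and the ranges met at 10 to 11. The mean share of all protein-coding genes marked was 20.6% ± 2.61 in embryonic and 19.6% ± 3.57 in maternal libraries. Peaks over nucleoporin genes numbered 29 ± 6.42 per embryonic and 18.5 ± 5.43 per maternal library. Ranbp2 alone averaged 6.5 ± 1.05 of these per embryonic and 1 ± 1.67 per maternal library. Whole lists averaged 9010 peaks in the embryonic and 9951 in the maternal phase. Of the 22 genes with a peak, 16 had more peaks per embryonic library, 5 more per maternal library and 1 the same number. Of all 9903 protein-coding genes with a peak, 5460 had more per embryonic library, 3903 more per maternal library and 540 the same number. The median difference was 0.333 peaks per library for the nucleoporin genes, beside 0.167 over all 9903 genes. With the same number of peaks in each list the difference was 1.5 genes, with means of 11 in embryonic and 9.5 in maternal libraries. With a stricter score (only peaks that reach the median score over the lists, 202), the direction was the other way, with 1 gene fewer marked per embryonic than per maternal library. Embryonic lists had lower significance per peak, with a mean of the lists' median −log10 q-values of 14.7, against 27.9 in maternal lists. Their median folds over input were 5.68 to 6.79 in embryonic and 4.59 to 5.99 in maternal lists. The part of these differences in the counts was not tested.

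**Figure D2:**
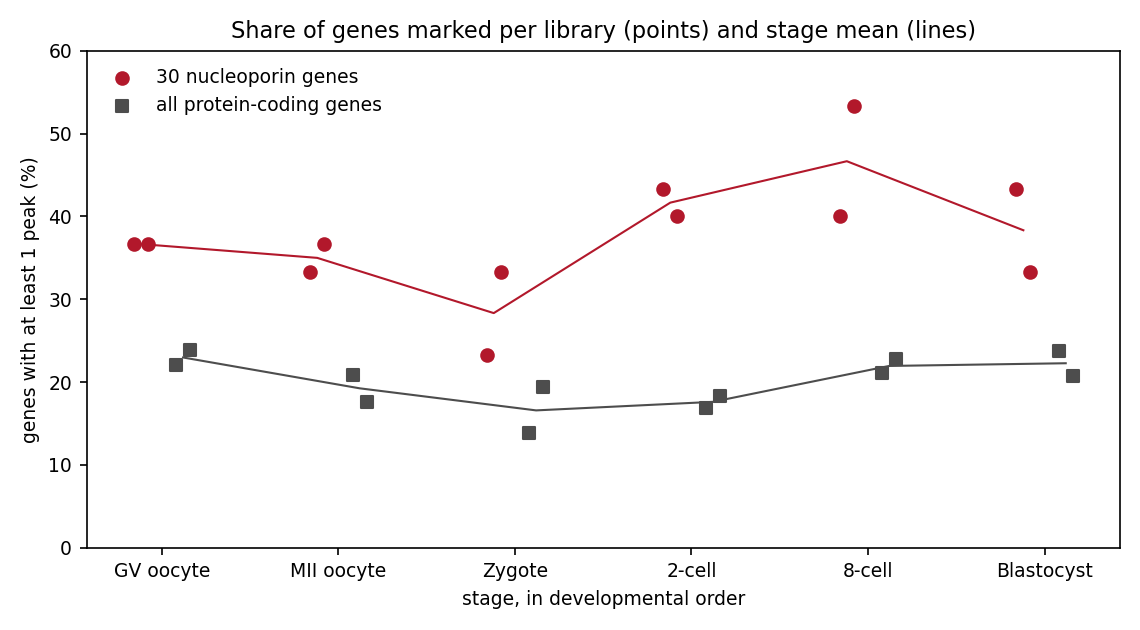
Percentage of the 30 nucleoporin genes (red circles) and of all 21887 protein-coding genes (grey squares) with at least 1 peak, per library (points) and as the mean of a stage (lines), in developmental order. Nucleoporin genes sit between 23.3% and 53.3% and protein-coding genes between 13.8% and 23.9%.

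Ranbp2 (chromosome 10, 58446852 to 58494155, mm10) was the nucleoporin gene called between the phases by its number of peaks. It encodes Nup358, the large filament protein of the cytoplasmic face that binds Ran and acts as a SUMO E3 ligase. Its gene body held 5 and 6 peaks in 2-cell, 8 and 7 in 8-cell and 7 and 6 in blastocyst libraries, against 2 and 4 in GV libraries and none in any MII or zygote library. The groups did not overlap. The mean was 6.5 ± 1.05 peaks per embryonic and 1.0 ± 1.67 per maternal library (SD, n = 6 each), a difference of 5.5 (exact two-sided permutation test over 924 splits, p = 0.00216, the smallest these splits can give; adjusted p = 0.0309 by Benjamini-Hochberg over 9903 genes). By this test 2.93% of genes were called higher in the embryonic phase, and 1 nucleoporin gene of the 22 tested was among them. The call ended (exact permutation test, adjusted p between 0.0545 and 0.0616) when 2-cell replicate 2, either 8-cell or either blastocyst library was left out, though the difference remained 5.2 to 5.6 peaks, and with the stricter score (3.5 peaks, exact permutation test, adjusted p = 0.0970). The 2 libraries of a stage are biological replicates, but the 3 stages of a phase are not replicates of each other: with stages as units the smallest p would be 0.1.

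Within Ranbp2, peaks of all lists merged into 7 sites, and the sites differed in when they carried a peak. The sites at 58478823 to 58479621 and 58479773 to 58480703 held a peak in all 6 embryonic libraries and both GV libraries, with the authors' fold over input of 2.81 to 9.35 and 3.95 to 11.7. The site at 58476594 to 58477805 held one in all 6 embryonic libraries and in GV replicate 2. The 2 sites at the gene's end, 58492626 to 58493133 and 58493582 to 58493952, held peaks in 2-cell replicate 2 and all 8-cell and blastocyst libraries (5 of 6 embryonic) and in none of the maternal libraries. Of the remaining sites, 58477923 to 58478456 was present in both 2-cell libraries and 8-cell replicate 1, while peaks at 58482843 to 58483096 stood in both 8-cell libraries and both blastocyst libraries. The strongest peak of the gene by q-value (58479773 to 58480416, fold 11.7) stood at the 97.7th percentile of the 2-cell replicate 2 list.

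A test per site was added after the data were seen: each site's libraries with and without a peak were compared by Fisher's exact test. Of 64 sites over nucleoporin genes, 12 had a number of marked libraries that could reach an unadjusted p of 0.05. The embryonic calls were 3, all in Ranbp2. The site at 58476594 to 58477805 was marked in 6 of 6 embryonic against 1 of 6 maternal libraries. Both end sites had 5 of 6 against 0 of 6. Each of these 3 gave the same result (Fisher's exact test, p = 0.0152, adjusted p = 0.0307). The maternal calls were 2, in Nup210 and Nup50, with 1 of 6 embryonic and 6 of 6 maternal libraries each and the same p and adjusted p. Over all 3549 sites tested, 17.2% were called embryonic and 32.2% maternal. With the stricter score 1 nucleoporin site was called in each direction, and with lists of equal length 3 embryonic and 1 maternal. Without GV replicate 1, GV replicate 2 or 2-cell replicate 1 the embryonic calls were 5, and without 2-cell replicate 2 they were 6.

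**Figure D3:**
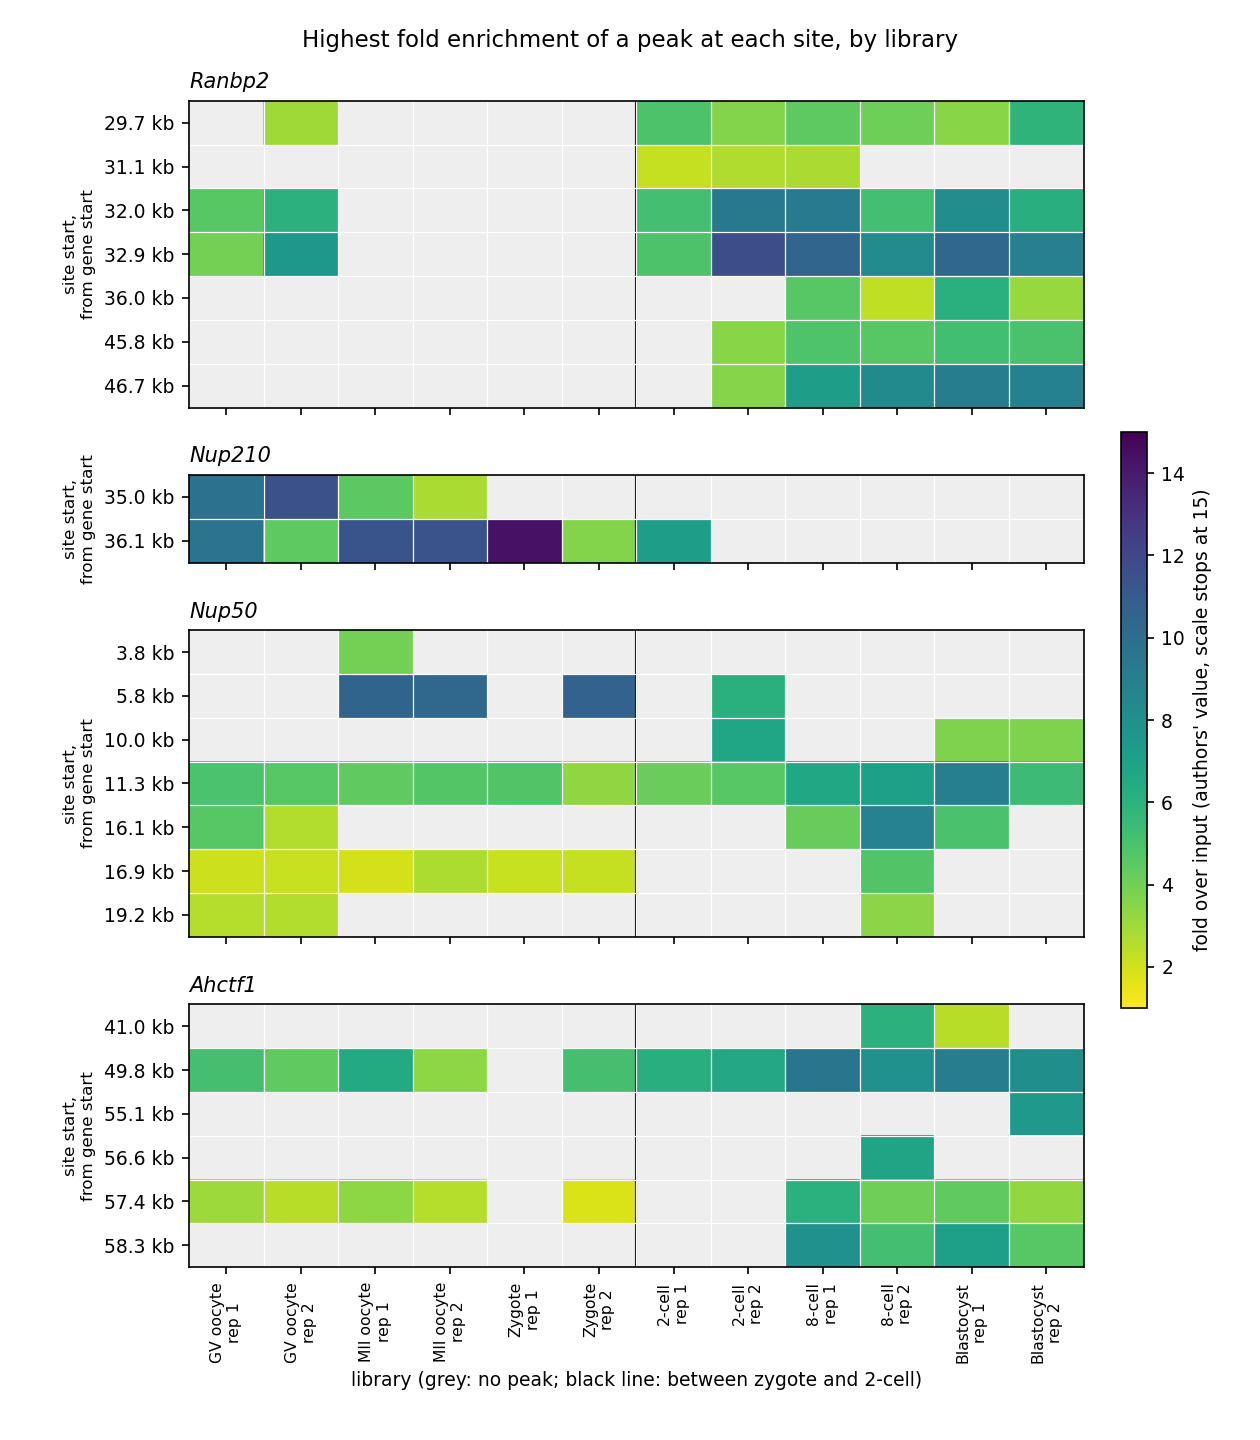
Highest fold over input (authors' value; colour scale stops at 15) of a peak at each merged site of Ranbp2, Nup210, Nup50 and Ahctf1 in each library; grey marks no peak, and the black line divides zygote and 2-cell libraries. Of the Ranbp2 sites, 3 of 7 are also filled in GV libraries and none in MII or zygote libraries, Nup210 sites are filled before it apart from 1 peak in 2-cell replicate 1, and 1 Nup50 site is filled in all 12 libraries.

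The other 4 cytoplasmic face genes held 0 to 2 peaks per library. Gle1 (chromosome 2, 29935409 to 29959432), which activates a DEAD-box helicase in the last step of mRNA export, held no peak in any embryonic library, against 1 and 1 in MII, 1 and 2 in zygote and none in both GV libraries. Its main site, 29939900 to 29940132, carried a peak in all 4 MII and zygote libraries with folds of 4.79 to 11.1, and its peak in MII replicate 1 stood at the 90.9th percentile of that list by q-value. Nup88 (chromosome 11, 70943058 to 70969973), the partner of Nup214 at the pore, was marked once in each blastocyst library and in no 2-cell or 8-cell library, against once in each MII and zygote library and in no GV library. All 6 Nup88 peaks lay at 1 site near the gene's end (70943977 to 70944309), the best in MII replicate 2 at the 92.4th percentile of its list. Nup214, an FG protein that binds the export receptor Xpo1, was marked in 2 of 6 embryonic and 5 of 6 maternal libraries, mainly at 32033655 to 32034138 on chromosome 2. Rae1, a partner of Nup98 in mRNA export, was marked in 2-cell replicate 2 and 8-cell replicate 1. None of these 4 genes was called by either test. The Fisher test gave p = 0.0606 for Gle1, whose number of marked libraries is too small to reach 0.05.

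All 3 nuclear basket genes were marked in each embryonic library, and 1 to 3 in each maternal library. Nup50 (chromosome 15, 84923428 to 84942963), a mobile basket protein that helps release import cargo, held 1 and 3 peaks in 2-cell, 2 and 4 in 8-cell and 3 and 2 in blastocyst libraries, against 4 and 4 in GV, 4 and 3 in MII and 2 and 3 in zygote libraries. The phase ranges overlapped. Its site at 84934733 to 84935284 carried a peak in all 12 libraries (fold 3.33 to 8.98; in blastocyst replicate 1 at the 94.6th percentile), while the site at 84940321 to 84940640 carried one in 8-cell replicate 2 and in all 6 maternal libraries. The site at 84933447 to 84933653 carried peaks in 2-cell replicate 2 and both blastocyst libraries. Tpr, the coiled-coil protein that forms the basket's filaments, held 1 to 6 peaks per embryonic library (median 2.5) and 0 to 4 per maternal library (median 2), and GV replicate 1 and zygote replicate 1 held none. The Tpr sites present in the most libraries lay inside the gene, at 150407139 to 150407529, 150408582 to 150408819 and 150415885 to 150416161 on chromosome 1, and were marked in 6, 8 and 8 libraries.

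Nup153 (chromosome 13, 46679902 to 46727849, minus strand), the basket's FG protein and a docking point for importins, was marked in all libraries except zygote replicate 1. It held 2 to 4 peaks per embryonic library (median 3) and 0 to 4 per maternal library (median 2.5). Its site at 46693650 to 46694249 was present in 11 libraries with folds of 3.94 to 25.2, the highest in blastocyst replicate 2. The site at 46686699 to 46687591 was present in all 6 embryonic libraries and, in the maternal phase, in both GV libraries and MII replicate 1. A further site, 46727717 to 46728067, lay across the gene's annotated start, in 8-cell replicate 2, blastocyst replicate 1, MII replicate 1 and zygote replicate 2, and it also touched the non-coding gene Gm46412, so the transcript it comes from cannot be told apart. Of the 26 nucleoporin genes with a promoter entry, Nup153 was the one with a peak over its promoter window, beside 5.37% of 17492 protein-coding genes. These windows did not take in a Nup62 site of blastocyst replicate 1 that begins 157 bp inside that gene's start. The 250 bases upstream of the Nup153 start (RefSeq, GRCm38.p6, chr13:46727850-46728099, minus strand, 5′ to 3′) are shown because the site runs into them, with the 218 bases inside it in capitals.
Nup153 upstream: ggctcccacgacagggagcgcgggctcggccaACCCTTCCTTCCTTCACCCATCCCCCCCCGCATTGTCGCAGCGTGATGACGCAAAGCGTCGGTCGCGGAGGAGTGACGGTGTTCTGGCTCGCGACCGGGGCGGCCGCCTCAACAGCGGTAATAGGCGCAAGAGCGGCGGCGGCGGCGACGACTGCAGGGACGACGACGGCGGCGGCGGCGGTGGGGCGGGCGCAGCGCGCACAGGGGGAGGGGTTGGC
The letters GGAC, the core of a common m6A context, occur 1 time on this strand and 0 times on the opposite one, and 84.4% of 21263 promoter windows hold them.

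The central channel genes differed in how steady their marks were. Nup62 (chromosome 7, 44816088 to 44831836), an FG protein of the channel, held 2 and 3 peaks in 2-cell, 2 and 2 in 8-cell and 4 and 2 in blastocyst libraries, against 2 and 2 in GV, 2 and 1 in MII and 1 and 2 in zygote libraries. All 25 Nup62 peaks also touched the overlapping gene Il4i1b, so the transcript they come from cannot be told apart. The site at 44829415 to 44830787 was present in all 12 libraries (fold 3.58 to 10.9), and the best peak of the gene, at the 98.6th percentile of the blastocyst replicate 2 list, lay at 44828477 to 44828753 (fold 15.2). Nup54, which joins Nup62 in the channel, held 1 peak in 2-cell replicate 2, both 8-cell libraries and blastocyst replicate 1, against 1 in each GV library and none in MII or zygote libraries. All were at 92415998 to 92416535 on chromosome 5, the end of the gene, and the best, in 8-cell replicate 2, stood at the 71.8th percentile. Nup98, an FG protein that also binds RNA export factors, held 1 and 0 peaks in 2-cell, 1 and 2 in 8-cell and 1 and 2 in blastocyst libraries, against 1 and 1 in GV and none in MII or zygote libraries. Of its 9 peaks, 7 also touched the neighbouring gene Art1, the 102119520 to 102120162 site on chromosome 7 among them, whose best peak (blastocyst replicate 1) stood at the 83.8th percentile. Nup58, the remaining channel gene (listed as Nupl1 in the table), was marked in 8-cell replicate 2.

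Among the membrane and anchor genes, Nup210 carried the maternal pattern and Ndc1 a constant one. Nup210 (chromosome 6, 91013067 to 91118322, minus strand) encodes gp210, a membrane-spanning nucleoporin known to be present in some cell types and not in others. It held 1 peak in 2-cell replicate 1 and none in the other 5 embryonic libraries, against 2 and 2 in GV, 2 and 2 in MII and 1 and 1 in zygote libraries. It was marked in 1 of 6 embryonic and 6 of 6 maternal libraries (Fisher's exact test, p = 0.0152, adjusted p = 0.0306 over 2310 genes marked in 5 to 7 libraries). This was the 1 call by that test among the 6 nucleoporin genes it covered, where 28% of tested genes were called maternal. No nucleoporin gene was called embryonic by it or had an unadjusted p under 0.05 in that direction (0 genes), where 21.6% of tested genes were called embryonic and where Ranbp2, marked in 8 libraries, could not be tested. By number of peaks, Nup210 averaged 0.167 ± 0.408 per embryonic and 1.67 ± 0.516 per maternal library (exact permutation test, difference −1.5, p = 0.00649, adjusted p = 0.0772). The permutation test called 0 nucleoporin genes maternal, beside 4.08% of all genes, and Nup210 was the 1 gene with an unadjusted p under 0.05. Without 2-cell replicate 1, its only embryonic library with a peak, Nup210 was called by number of peaks too (exact permutation test, adjusted p = 0.0269). Over all runs without 1 library this adjusted p reached 0.101, and with replicate number as a block it was 0.116 (exact permutation tests).

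Both Nup210 sites lay close together, at 33.6% and 34.5% of the way along the gene. The site at 91081859 to 91082237 was filled in 2-cell replicate 1 and in all 6 maternal libraries (best in MII replicate 2, at the 96.8th percentile), and the site at 91082526 to 91083328 in the 4 GV and MII libraries. Ndc1 (chromosome 4, 107368047 to 107416346), a membrane protein that anchors the scaffold, held exactly 1 peak in each of the 12 libraries, and all 12 fell within the 306 bp from 107413926 to 107414231. Its fold was 6.17 and 5.30 in 2-cell, 13.6 and 11.5 in 8-cell and 8.21 and 6.72 in blastocyst libraries, against 6.65 and 6.83 in GV, 5.05 and 4.57 in MII and 4.77 and 4.41 in zygote libraries, as the authors' values within each list. The best by q-value, in 8-cell replicate 2, stood at the 98.2nd percentile. Pom121, the other membrane-spanning protein of the group, was marked at 135381040 to 135381418 on chromosome 5 in 4 embryonic libraries (2-cell replicate 1, both 8-cell libraries and blastocyst replicate 1) and in none of the maternal libraries (Fisher's exact test, p = 0.0606, which its number of marked libraries cannot go below). Aaas, a component linked to Ndc1, had no peak.

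Of the scaffold genes, 5 of 9 in the Y complex and 2 of 5 in the inner ring carried a peak, beside 45.2% of all protein-coding genes. Ahctf1 (chromosome 1, 179744904 to 179804015, minus strand) encodes ELYS, the Y complex partner that binds chromatin and starts pore assembly after division. It held 2 and 1 peaks in 2-cell, 3 and 6 in 8-cell and 5 and 6 in blastocyst libraries, against 3 and 2 in GV, 3 and 2 in MII and 0 and 3 in zygote libraries. The 8-cell and blastocyst libraries were at or above all others, while the 2-cell libraries were not above the maternal ones. Its site at 179752317 to 179754237 was present in 11 libraries, and the site nearest its end, 179745219 to 179745676, was present in the 4 8-cell and blastocyst libraries. Of the other Y complex genes, Nup85 was marked in 4 libraries (2-cell replicate 1, 8-cell replicate 2, blastocyst replicate 1 and MII replicate 2), Nup107 in 2-cell replicate 1, Nup133 in 2-cell replicate 2 and Nup160 in 8-cell replicate 2. Nup37, Nup43, Seh1l and Sec13, the smaller Y complex subunits, had no peak.

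Of the inner ring genes, Nup155 (chromosome 15, 8109263 to 8159859), which links the ring to the membrane, held 1 peak in each 2-cell and 8-cell library and none in blastocyst libraries, against 1 in GV replicate 1 and zygote replicate 1 and none in the other 4 maternal libraries. All 6 peaks were at 8126101 to 8126302 (fold 4.56 to 12.8), inside the gene, the best at the 76.1st percentile of the 2-cell replicate 1 list. Nup205, a large inner ring scaffold protein, was marked in 2-cell replicate 2, 8-cell replicate 2 and blastocyst replicate 2 and in no maternal library. Nup93 and Nup188, its partners in the ring, and Nup35 had no peak, although the Nup93 gene body of 113537 bp was the longest of the 30.

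Between consecutive stages, a gene was counted as gained when both libraries of the later stage and neither of the earlier one were marked, and as lost in the reverse case. With 2 libraries against 2 the smallest p is 0.333, so that no test was made. In MII against GV oocytes, Nup88 and Gle1 were gained (3.33% of the 9903 genes were) and Nup54, Nup98 and Ranbp2 were lost (8.74%). In zygotes against MII oocytes no nucleoporin gene was gained or lost (0.666% and 2.53% of all genes). In 2-cell embryos against zygotes Ranbp2 was gained (9.88%) and Nup88 and Gle1 were lost (7.94%). In 8-cell against 2-cell embryos none was gained or lost (10.9% and 5.66%), and in blastocysts against 8-cell embryos Nup88 was gained (4.79%) and Nup155 lost (4.29%). With the same number of peaks in each list, 7 gains were counted over the 5 steps in place of 4, the added ones being Tpr in MII oocytes and Nup54 and Nup98 in 8-cell embryos. Without peaks that also touch another protein-coding gene, Nup98 was not counted as lost in MII oocytes, and the losses were 5 in place of 6.

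Most nucleoporin peaks lay inside the gene body and away from its ends, as did most peaks over all protein-coding genes. In genes longer than 10000 bp with known strand, 67 of 278 nucleoporin peaks (24.1%) lay within 2000 bp of the gene's end, beside 24.4% of peaks over all such genes. The share was 26.2% in embryonic and 20.9% in maternal libraries, and over all genes 28.0% and 20.9%. Away from both ends lay 74.1% of nucleoporin peaks and 70.6% of peaks over all such genes, and near the start 1.80% and 5.00%. Of 59 sites with known direction, 15 lay near the end, 2 near the start and 42 inside. The share of sites present in 1 library was 37.5% of the 64 nucleoporin sites and 35.6% of all sites over protein-coding genes. The table gives no exons, so whether these internal peaks lie in exons or introns was not analysed here.

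**Figure D4:**
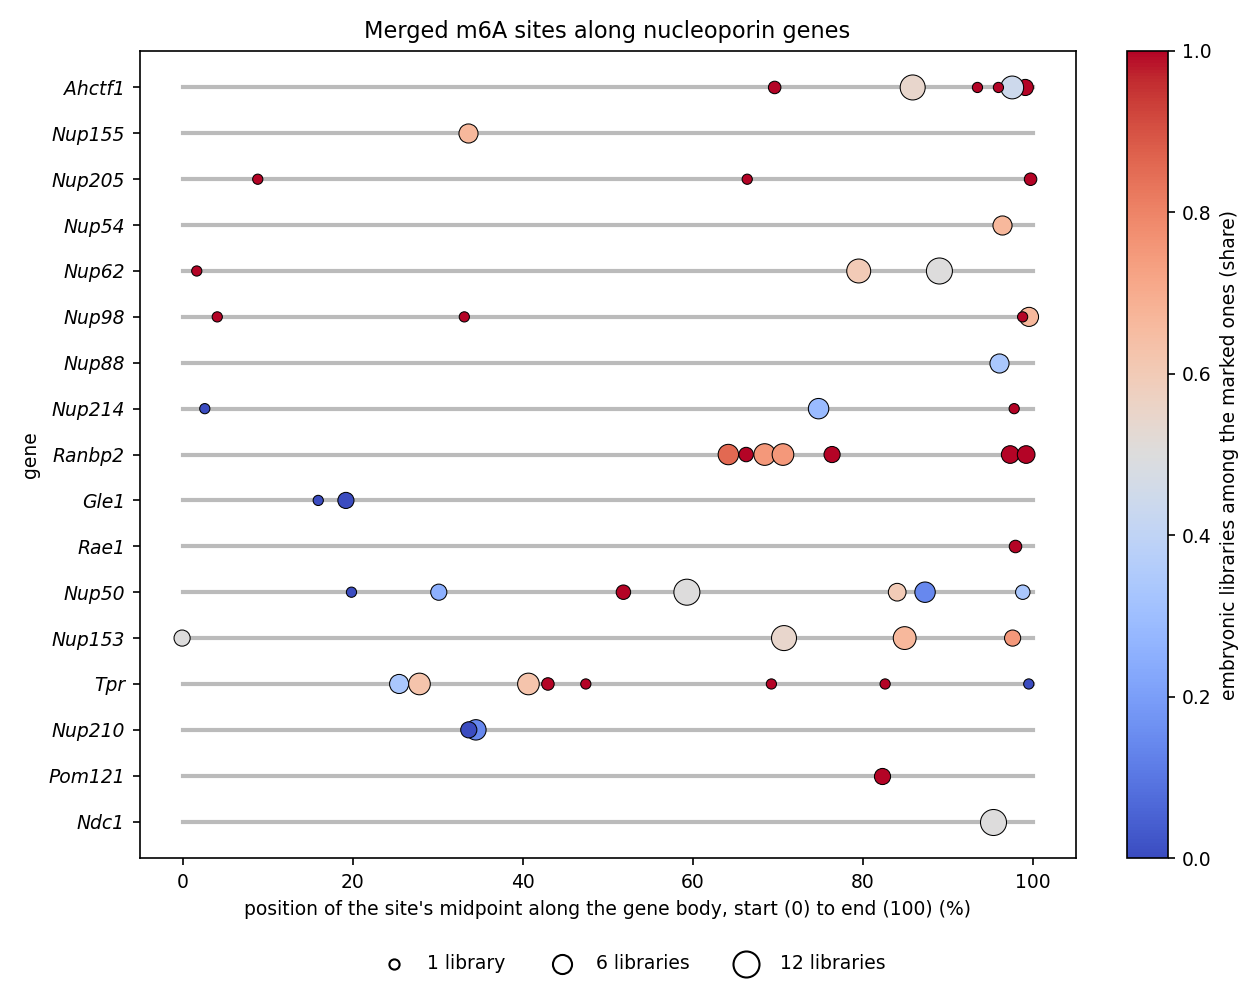
Midpoint of each merged site along the gene body, from start (0%) to end (100%), for nucleoporin genes of known strand with a site in at least 2 libraries; circle size gives the number of libraries and colour the share of embryonic libraries among them. Ranbp2 sites lie at 64.2% to 99.2% of the gene, and both Nup210 sites at 33.6% and 34.5%.

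Among genes that work with the pore, taken as 4 further lists from textbook knowledge, a few were called between the phases. The shares of all genes called, given above, were 21.6% embryonic and 28% maternal by marked libraries, and 2.93% and 4.08% by number of peaks. The test on marked libraries covered 5 of the 24 transport receptors, 4 of the 18 mRNA export genes, 2 of the 12 lamina and envelope genes and 1 of the 10 Ran cycle and SUMO partners. Transport receptors marked averaged 10.5 ± 3.02 per embryonic and 7.83 ± 1.83 per maternal library (SD), a difference of 2.67 as for the nucleoporin genes. The mRNA export genes averaged 6.5 in both phases. Lamina and envelope genes averaged 4.83 and 4, and Ran cycle and SUMO partners 4.17 and 3.5. Of the transport receptors, 21 carried a peak, 2 were called embryonic and 1 maternal by number of marked libraries, and 1 and 1 by number of peaks. Kpna1, an importin alpha, held 3 and 4 peaks in 2-cell, 4 and 5 in 8-cell and 3 and 3 in blastocyst libraries, against none in any maternal library. Kpna7, the importin alpha of oocytes and early embryos, held none in any embryonic library, against 2 in each GV and MII and 1 in each zygote library. Ipo7, an importin beta, was marked in 5 embryonic libraries (all but 2-cell replicate 1) and no maternal library (Fisher adjusted p = 0.0306). Of the mRNA export genes, 14 carried a peak and Eny2, a subunit of the pore-bound TREX-2 complex, was called maternal, with none in any embryonic library against 1 and 2 in GV, 4 and 4 in MII and 3 and 3 in zygote libraries. Of the lamina and envelope genes, 9 carried a peak and Lemd3, an inner membrane protein, was called embryonic, with 3 and 4 in 2-cell, 5 and 4 in 8-cell and 3 and 1 in blastocyst libraries against none in maternal libraries. Kpna1, Kpna7, Eny2 and Lemd3 had an adjusted p of 0.00963 by Fisher's exact test and of 0.0309 by the exact permutation test. Of the Ran cycle and SUMO partners, 7 carried a peak and 0 were called by either test, with 0 at an unadjusted p under 0.05.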

How the data were processed

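Peak lists of 12 immunoprecipitated libraries were analysed; inputs (12) were not used here. Per the submitters' processing notes, HISAT2 2.1.0, MACS2 2.1.2 and the mm10 build were used; their settings were not stated. Peak names in the deposited files show each library called against the input of its own stage and replicate, without pooling. The authors' deposited columns are a score, a fold enrichment (ratio) and −log10 p- and q-values per summit, with a lowest −log10 q near 1.3; they were used only to rank, filter or describe peaks. The 143579 summits were collapsed to 113764 peaks by interval. Read depth is unknown.

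Gene bodies, introns included, came from a RefSeq table of GRCm38.p6, the primary assembly of mm10, without exons; strand was known for 26 of 30 members, through RefSeq promoter entries. Overlap needed 1 bp. Fisher's exact test on marked libraries (genes marked in 5 to 7 libraries) and an exact permutation test on peaks per library compared the phases, adjusted by Benjamini-Hochberg at 0.05 over all genes tested. Sites are peaks of all 12 lists merged. Scripts (Python 3.11.15, SciPy 1.17.1) were tested on simulated data. All members are accounted for, and values in every library are given for those called, gained, lost or marked in all 12 libraries; Ahctf1 was added after its values were seen. The members and lists were chosen with earlier results of these data known.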

Additional observations from a re-analysis of the deposited data

Results flagged for a closer look

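Within the phases, 24 groups of 6 libraries were looked at for a library far from the others, and chance marks about 1 in 20 such groups. Zygote replicate 1, the shortest list, marked 7 nucleoporin genes, where the other 5 maternal libraries marked 10 or 11. The same library held 8 nucleoporin peaks, where the other 5 held 18 to 22. The single Nup210 peak of 2-cell replicate 1 (1 peak) stood apart from the other 5 embryonic libraries, which held 0. A lone peak beside counts of 0 is always marked in this way, so the rate of 1 in 20 does not apply to it.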

How the results depend on the processing

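The Fisher call of Nup210 held in each alternative run, with an adjusted p of 0.0110 to 0.0436 when 1 library was left out, and no called result turned its direction. The stricter score (202 and above) gave 190 genes called embryonic by marked libraries (498 with all peaks) and 84 by number of peaks (290), with 0 nucleoporin genes called embryonic and 1 maternal by number of peaks. They also gave 217 sites called embryonic, of which 1 over a nucleoporin gene, 1 nucleoporin site called maternal, and a difference of −1 in members marked per library. The same number of peaks per list gave 1 nucleoporin site called maternal and 7 gains. Within 1000 bp of the gene end lay 11.2% of nucleoporin peaks, beside 12.6% of peaks over all protein-coding genes.

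When 1 library was left out, genes called embryonic by marked libraries ranged from 501 to 815 (815 without 2-cell replicate 1, 769 without 2-cell replicate 2) and sites called embryonic from 614 to 1166. Nucleoporin genes called by marked libraries ranged from 0 to 1 embryonic and 1 to 2 maternal, those called by number of peaks from 0 to 1 in each direction, and nucleoporin sites called embryonic from 3 to 6. Ranbp2 was called by marked libraries without either GV library, and so was Gle1 in the maternal direction, while Pom121 was called embryonic without 2-cell replicate 2 or blastocyst replicate 2. The cause was not tested. Replicate numbers did not pair the samples: in 15 pairs of stages the correlation of same-numbered deviations was −0.165 to 0.0249. With replicate number as a block, the permutation test called 0 genes embryonic and 0 maternal, so 0 nucleoporin genes (691 and 1004 genes at an unadjusted p under 0.05), its smallest p being 0.005 and the adjusted p of Ranbp2 0.0687, and the Fisher test called 498 and 647 as without the block. The alternative by exon overlap was not run, since the table gives no exons. Unknown depth limits every absent peak.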
